A study of Mus musculus with 19 samples.

Results

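Interferon-stimulated genes were followed across normal mouse colon and colon tumours of 2 genotypes. The set held 59 genes of 32694 in the deposited table, taken by gene symbol from a list of genes known to respond to interferon, and all 59 passed the filter on low values that left 18445 genes for testing. The choice used no threshold on measured values, but it was made with earlier results of these data known.

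RNA came from mice of 12 weeks of age in 3 groups. Wild-type colon was represented by 5 libraries (3 females and 2 males), and these were pieces of whole normal colon. Apc tumours were 7 single tumours (3 females and 4 males) from mice in which Villin-Cre, a recombinase driven by a promoter of the gut epithelium, had deleted 1 allele of Apc. Apc/Tgif tumours were 7 single tumours (3 females and 4 males) from mice that had the same Apc deletion and, by the same Cre, deletion of both alleles of Tgif1 and of Tgif2, which encode homeobox repressors that limit TGF-beta and retinoid signalling. The labels do not give the strain or say whether wild-type mice carried Cre. Libraries are called by group and number, with females numbered first in each group.

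Interferons are secreted alarm proteins. Type I and type III interferons bind their receptors, activate the kinases Jak1 and Tyk2 and lead to a complex holding Stat2 and Irf9 that binds a DNA element called ISRE. Type II interferon, the product of Ifng, acts through Jak1 and Jak2 and a different element, GAS, and it is the main inducer of guanylate-binding proteins and immunity-related GTPases. In the gut these genes are kept at a standing level by signals from the microbiota, and they protect epithelium and immune cells from viruses and intracellular microbes.

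The promoters of some members hold the core of the element to which the type I complex binds. Members were matched by symbol to RefSeq promoters of the GRCm38.p6 build, running from 250 bases before to 50 bases after each annotated start, and 43 of the 59 had an entry. The core of the ISRE, GAAA followed by any 2 bases and a second GAAA, searched on both strands with overlaps allowed, occurred in 22 of 43 members (51.2%) and in 3.99% of all 27025 genes of the table. The core TTCNNNGAA of the GAS, searched in the same way, occurred in 11 of 43 members (25.6%) and in 9.55% of all genes. The stretches below come from members of different roles and let the repeated and paired arrangements be seen. They were taken only from members with an ISRE core before the start. They are shown 5′ to 3′ on the gene's strand, with the ISRE core in capitals. On the opposite strand the core reads TTTC, any 2 bases, TTTC.
Isg15, chr4:156200850-156200921, minus strand: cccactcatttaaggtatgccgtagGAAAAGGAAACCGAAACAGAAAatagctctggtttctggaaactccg
Ifit1, chr19:34640760-34640838, plus strand: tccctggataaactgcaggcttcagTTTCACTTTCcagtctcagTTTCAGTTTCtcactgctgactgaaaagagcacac
Ifit3, chr19:34583348-34583441, plus strand: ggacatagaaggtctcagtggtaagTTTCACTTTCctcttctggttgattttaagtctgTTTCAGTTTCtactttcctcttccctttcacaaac
Oas1a, chr5:120907526-120907570, minus strand: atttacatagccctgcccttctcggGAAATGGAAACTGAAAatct
Oas1g, chr5:120887614-120887656, minus strand: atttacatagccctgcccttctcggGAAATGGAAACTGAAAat
Bst2, chr8:71537562-71537627, minus strand: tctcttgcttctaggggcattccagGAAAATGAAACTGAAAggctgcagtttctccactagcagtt
Stat2, chr10:128270251-128270310, plus strand: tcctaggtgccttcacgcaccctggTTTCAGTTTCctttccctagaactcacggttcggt
Gbp7, chr3:142530258-142530317, plus strand: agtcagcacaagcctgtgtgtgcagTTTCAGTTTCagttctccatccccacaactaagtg
Igtp, chr11:58199497-58199555, plus strand: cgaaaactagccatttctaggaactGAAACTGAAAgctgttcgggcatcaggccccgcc

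In Isg15, 3 overlapping cores form 1 run, from 103 to 32 bases before the start including the flanks. Ifit1 and Ifit3 each carry 2 separate cores, and Oas1a, Oas1g and Bst2 carry 2 that overlap. The shown stretches of Oas1a and Oas1g, neighbouring copies of 1 gene, are the same letter for letter as far as the shorter one runs. Stat2, Gbp7 and Igtp have 1 core each. A match is a run of letters and does not show that a factor binds there.

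Libraries were compared on the authors' normalized counts, that is, reads per gene divided by a factor per library, so that values of 1 gene can be compared between libraries but not between genes. The labels were first checked on the targeted genes. Tgif1 stood at 964.1 ± 143 (SD, n = 5) in wild-type colon, 3815 ± 803 (n = 7) in Apc tumours and 353.8 ± 137 (n = 7) in Apc/Tgif tumours. Tgif2 stood at 160.9 ± 50.1, 642.4 ± 92.1 and 2657 ± 352, so that tumours labelled as lacking Tgif2 held more Tgif2 RNA, summed over the gene, than either other group. Which exons were deleted is not stated in the labels, and a whole-gene value cannot check them. The epithelial marker Epcam stood at 65960 ± 9200, 66660 ± 9460 and 66930 ± 6250, but other epithelial markers were not level. By the test used below, Krt8, Krt19, Krt20, Vil1 and Cdx1 were lower in each tumour group than in wild-type colon. Krt18 was higher in each, and Cdh1 and Cdx2 were not called. The mean log2 value over the epithelial markers averaged 14.83, 14.28 and 13.94 in the 3 groups. All 8 smooth muscle markers and all 7 B and plasma cell markers were lower in each tumour group than in wild-type colon by the test used below, and all 6 neutrophil markers were higher. In these bulk samples, fewer cells of a type and less RNA per cell cannot be told apart.

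Libraries within a group differed more for the members than for genes at large. The member score, the mean of log2(normalized count + 1) over the 59 genes, was 9.64, 10.41 and 9.41 in the female wild-type colons and 11.3 and 11.61 in the males. The median member had a within-group SD of 0.964 in wild-type colon on the log2 scale, against 0.279 for all genes tested. Both males lay above all 3 females for 56 of 59 members, where 19.1% of all genes did so. In Apc tumours the score ran from 8.6 to 9.93 with a median of 9.09, and Apc tumour 2, a female, was the highest library of its group for 43 members. In Apc/Tgif tumours it ran from 9.84 to 11.67 with a median of 10.32, and Apc/Tgif tumour 6, a male, was the highest for 52 members. Results that rest on these libraries are given with and without them.

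Members were lower in Apc tumours than in wild-type colon. By limma on log2(normalized count + 1), with terms for group and sex and Benjamini-Hochberg adjustment over all genes tested, 42 of 59 members were lower and 0 were higher at an adjusted p of 0.05, where 25.2% of all genes were lower and 23.9% higher. At an unadjusted p under 0.05 the counts were 46 lower and 1 higher, against 28% and 27.1% of all genes. The median member differed by -1.40 on the log2 scale, against -0.01 for all genes, and the range ran from -3.50 (Ifi27l2a) to 0.68 (Lgals9). For 17 members every Apc tumour lay below every wild-type colon, as 15.4% of all genes did. Without both male wild-type libraries 18 of the 42 calls were kept, and without wild-type colon 5 alone 33 members were called lower. The 18 were Irf1, Irf7, Sp100, Ifih1, Dhx58, Oas1a, Oas1g, Oasl1, Oasl2, Mx1, Csprs, Helz2, Herc6, Trim25, Parp12 and the 3 Ifi27 genes.

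Apc/Tgif tumours held more RNA of most members than Apc tumours did. Here 43 of 59 members were higher and 0 lower, where 7.88% of all genes were higher and 8.76% lower, and at an unadjusted p under 0.05 the counts were 48 and 1, against 13.7% and 15.3% of all genes. The median member was higher by 1.24 on the log2 scale (all genes -0.01), and 57 of 59 differences were above 0, as 48.6% of all genes were. For 17 members every Apc/Tgif tumour lay above every Apc tumour, where 2.3% of all genes did so, and for 0 every one lay below (1.77%). Without Apc tumour 2 and Apc/Tgif tumour 6 together, 41 of the 43 calls were kept, and Oasl1 and Lgals3bp were the 2 that were not. Without Apc/Tgif tumour 6 alone 34 members were called higher.

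Against wild-type colon, Apc/Tgif tumours had members on either side. There were 8 members higher (24.8% of all genes) and 11 lower (25.5%), with a median of -0.15 against 0.00 for all genes. The 8 were Phf11d, Ddx58, Ifit2, Csprs, Usp18, Gbp6, Lgals9 and Lgals3bp, and the 11 were Irf1, Stat2, Ifih1, Oas1g, Oasl1, Uba7, Trim25, Helz2, Parp12, Ifi27 and Gbp2. Without both male wild-type libraries 17 members were called higher, the 8 among them, and only Irf1 and Helz2 of the 11 stayed lower. The share of all genes called in that fit is not given. Without wild-type colon 5 alone 3 were called lower. The 3 comparisons share their groups: wild-type colon enters 2 of them, and so does each kind of tumour.

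**Figure D1:**
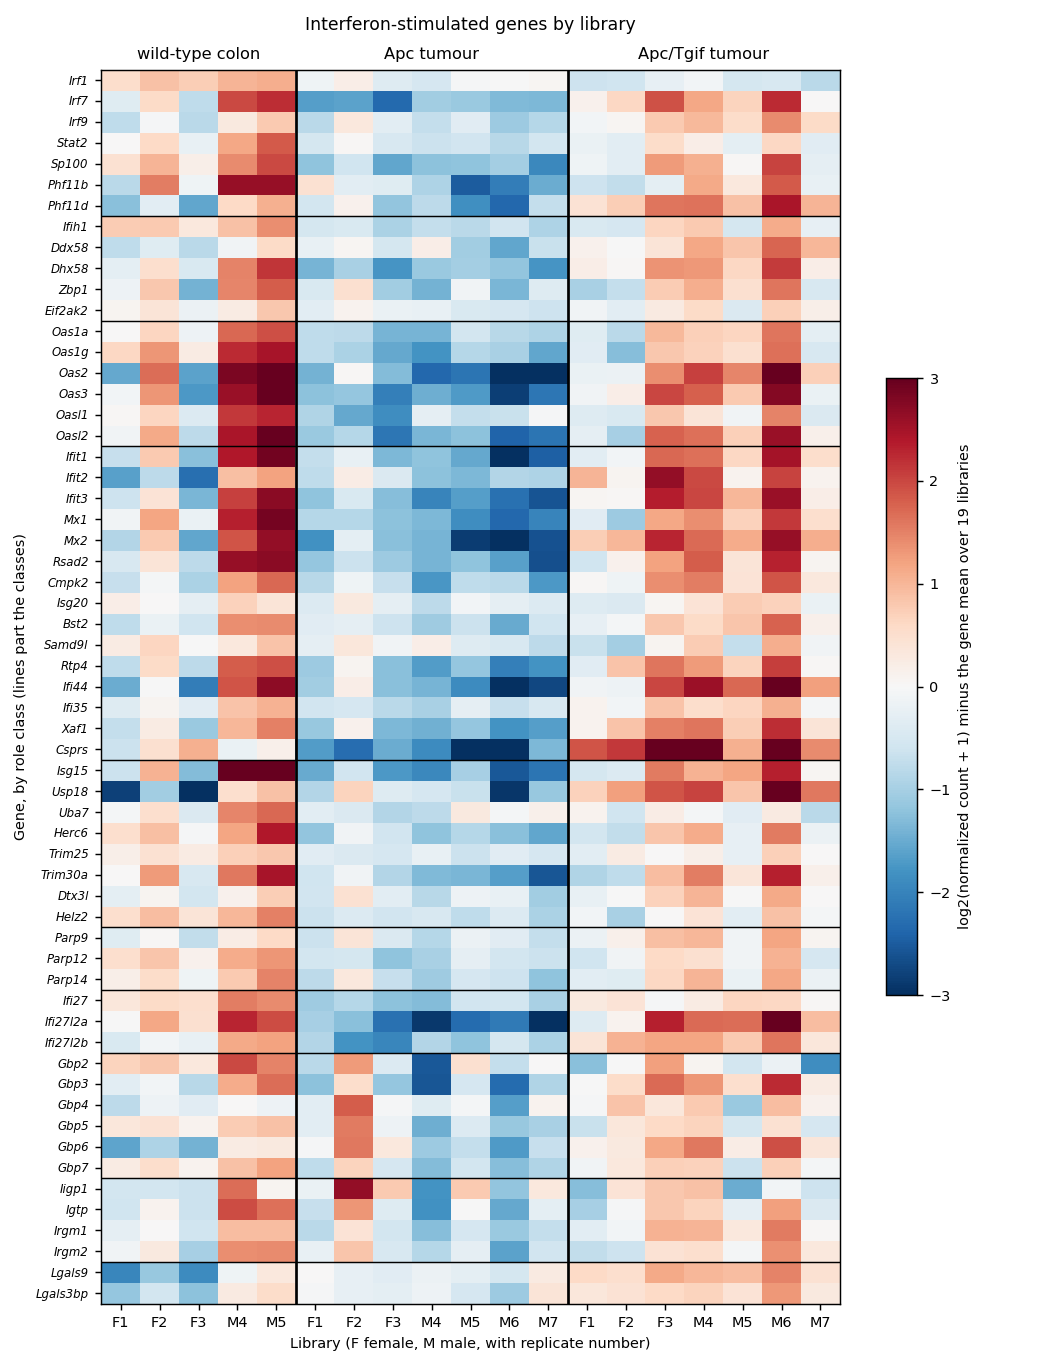
Heat map of the 59 members (rows, ordered by role) over 19 libraries (columns, by group, females before males). Colour is the log2(normalized count + 1) minus the gene's mean over all libraries. The male wild-type columns and Apc/Tgif tumour 6 are the highest over most rows, and Apc tumours 4 to 7, the males, are low over most rows.

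**Figure D2:**
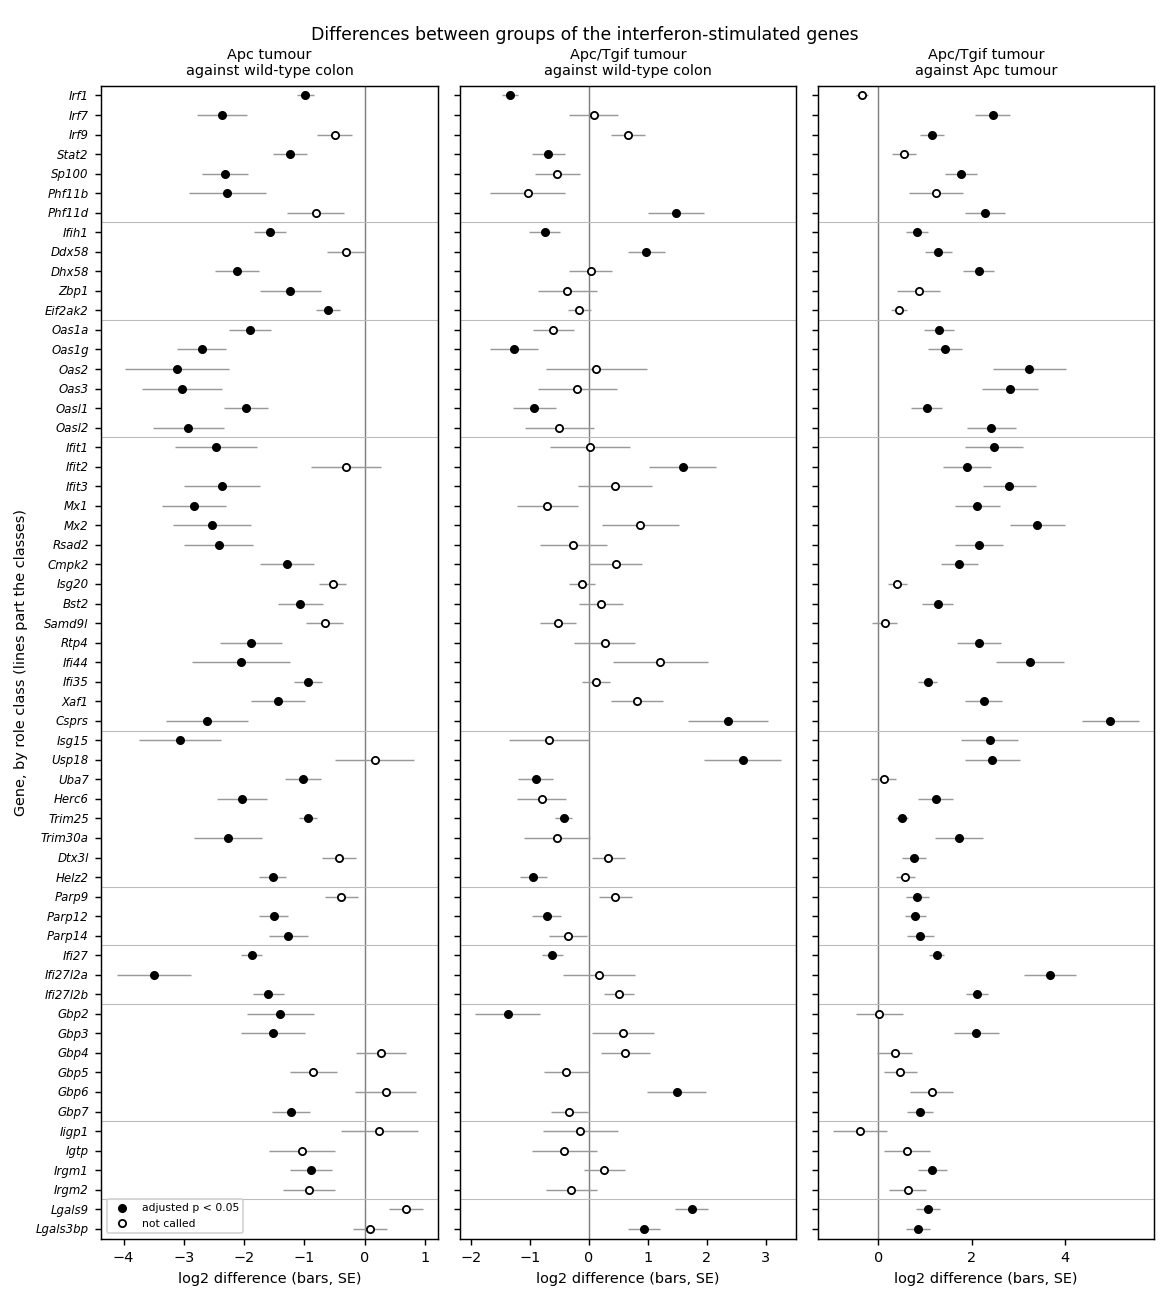
Log2 difference of each member, ordered by role, with bars of 1 standard error from the limma fit, for each of the 3 comparisons. Filled points have an adjusted p under 0.05. In Apc tumours against wild-type colon 42 points are filled, all below 0, and in Apc/Tgif against Apc tumours 43 are filled, all above 0.

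The interferon transcription factors fell in part against wild-type colon and rose in part between the tumours. Of 7 genes, 5 were lower in Apc tumours than in wild-type colon (3 of these without the male wild-type libraries), and 4 were higher in Apc/Tgif than in Apc tumours. Beside these and the later counts by role, 25.2% of all genes were lower in the first comparison and 7.88% higher in the second. Irf7, the factor that amplifies the type I response (chr7:141262706-141266481, minus strand, GRCm38), read 2067, 3981, 1574, 10550 and 12300 in wild-type colons 1 to 5. It ran from 528.4 through a median of 1036 to 1287 in Apc tumours, and from 2674 through 4232 to 12550 in Apc/Tgif tumours. No Apc tumour reached any library of the other groups. Irf7 fell by 2.37 on the log2 scale in Apc tumours (SE 0.416, limma adjusted p = 0.000112) and rose by 2.45 from Apc to Apc/Tgif tumours (SE 0.376, adjusted p = 0.000217), with a difference of 0.08 between Apc/Tgif tumours and wild-type colon (adjusted p = 0.888).

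Irf1, a factor of the type II response, took another course. It read 5081, 6457, 5894, 7150 and 7530 in wild-type colon, 2486 through 3427 to 4035 in Apc tumours, and 2009 through 2435 to 3324 in Apc/Tgif tumours. Both kinds of tumour lay below all wild-type colons. Irf1 fell by 0.98 in Apc tumours (SE 0.142, limma adjusted p = 1.32e-05) and by 1.34 in Apc/Tgif tumours (SE 0.142, adjusted p = 2.27e-07), and the tumours differed by -0.36 (adjusted p = 0.0625). Irf9, the DNA-binding part of the type I complex, read 1379, 2303, 1331, 2891 and 4062 in wild-type colon, 1108 through 1432 to 2902 in Apc tumours and 2226 through 3510 to 6278 in Apc/Tgif tumours. It was higher in Apc/Tgif than in Apc tumours by 1.16 (SE 0.261, limma adjusted p = 0.0047), with groups that overlapped. Stat2, its partner, was lower in Apc tumours than in wild-type colon by a log2 difference of -1.24, and its difference between the tumours, 0.55, did not pass (limma adjusted p = 0.16). The call of Stat2 as lower in Apc/Tgif tumours than in wild-type colon ended on leaving out any 1 of 13 libraries (-0.70 to -0.38), that is, any but wild-type colon 1 or 3, Apc tumour 2 or 6 or Apc/Tgif tumour 3 or 6. Sp100, a nuclear body protein, and Phf11d rose from Apc to Apc/Tgif tumours by 1.78 and 2.29 without overlap. Phf11b, a near-identical relative of Phf11d with which reads may be shared, did not pass there (1.24, limma adjusted p = 0.161).

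**Figure D3:**
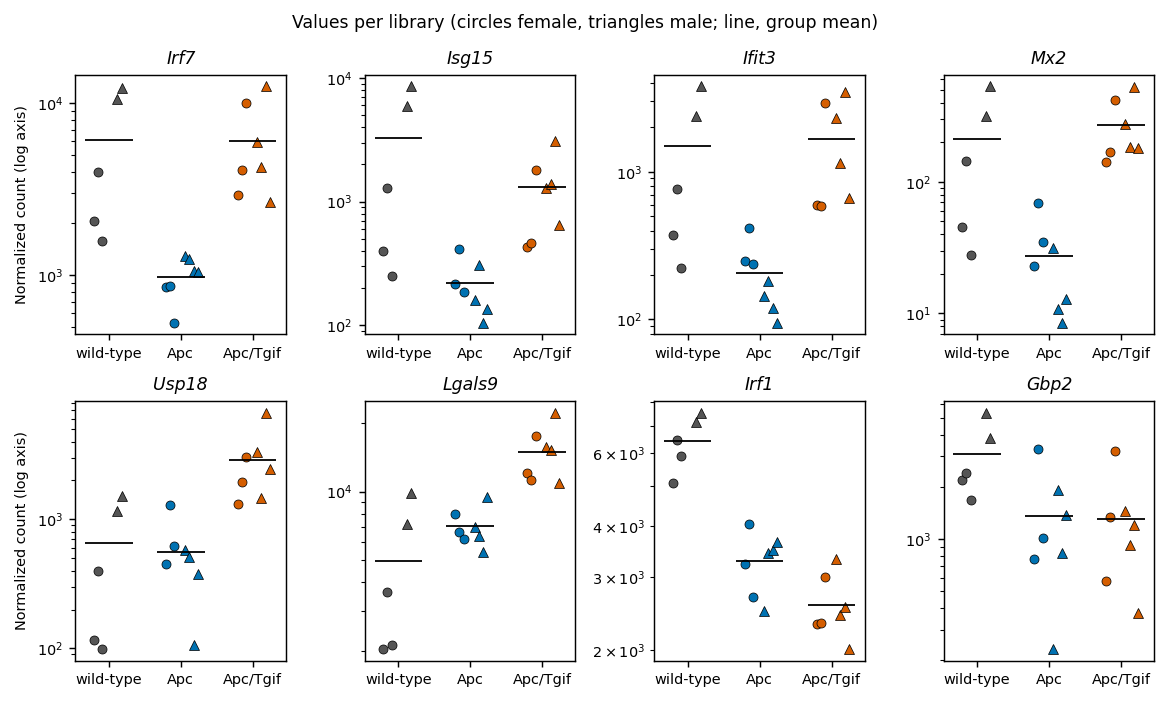
Normalized count per library (log axis) of 8 members in wild-type colon, Apc tumours and Apc/Tgif tumours. Circles are females, triangles males and the line is the group mean. Irf7, Isg15, Ifit3, Mx2 and Usp18 show the male wild-type libraries above the females and Apc/Tgif tumours above Apc tumours, whereas Irf1 is highest in wild-type colon and Gbp2 is not separated between the tumours.

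Sensors of foreign or misplaced nucleic acid came next. Of 5, 4 were lower in Apc tumours than in wild-type colon (2 of these without the male wild-type libraries) and 3 were higher in Apc/Tgif than in Apc tumours. Ifih1, which encodes the long double-stranded RNA sensor Mda5, read 4625, 4746, 3400, 5005 and 7176 in wild-type colon, 1423 through 1663 to 2000 in Apc tumours, and 1895 through 2313 to 5936 in Apc/Tgif tumours. Every Apc tumour was below every wild-type colon. Ifih1 fell by 1.58 in Apc tumours (SE 0.264, limma adjusted p = 6.84e-05). Its rise of 0.82 from Apc to Apc/Tgif tumours (adjusted p = 0.0226) was not called without Apc/Tgif tumour 3, 4 or 6, where it was 0.67 to 0.72. Its fall of 0.75 in Apc/Tgif tumours against wild-type colon (adjusted p = 0.0237) was not called without wild-type colon 5 or Apc/Tgif tumour 1 or 2 (-0.66 to -0.62).

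Ddx58, which encodes the sensor Rig-I, read 1023, 1349, 1003, 1625 and 2600 in wild-type colon, 589.8 through 1214 to 1987 in Apc tumours and 1722 through 3082 to 5831 in Apc/Tgif tumours. It was not called in Apc tumours against wild-type colon (-0.31, limma adjusted p = 0.432) and was higher in Apc/Tgif tumours than in wild-type colon by 0.97 (adjusted p = 0.0151) and than in Apc tumours by 1.28 (adjusted p = 0.00427). Dhx58, which encodes the regulatory member of that family, Lgp2, read 490.7, 851.2, 435.8, 1673 and 2652 in wild-type colon. Its Apc tumours ran from 174.4 through 264.2 to 304.2 and its Apc/Tgif tumours from 616.4 through 922.4 to 2584, so that all 7 Apc tumours lay below all other libraries. It fell by 2.12 in Apc tumours (SE 0.365, limma adjusted p = 8.95e-05) and rose by 2.15 between the tumours (SE 0.33, adjusted p = 0.000213).

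Eif2ak2, which encodes the translation-blocking kinase Pkr, read 2956, 3663, 2492, 3329 and 4954 in wild-type colon, 1830 through 2259 to 3000 in Apc tumours and 2090 through 3158 to 4588 in Apc/Tgif tumours, with overlap between all groups. It was lower in Apc tumours with a difference of -0.61 (SE 0.199, limma adjusted p = 0.0164), a call that ended without wild-type colon 5 (-0.46), and its difference of 0.44 between the tumours did not pass (adjusted p = 0.104). Zbp1, a sensor of left-handed nucleic acid, was lower in Apc tumours with a difference of -1.24 (limma adjusted p = 0.0498), and that call ended on leaving out any 1 of 13 libraries (-1.33 to -0.96), all but wild-type colon 3, Apc tumours 1 and 2 and Apc/Tgif tumours 3, 6 and 7.

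The 2-5 oligoadenylate synthetases, which make the short RNA-like messenger that switches on RNase L, and their Oasl relatives moved together in their calls. All 6 were lower in Apc tumours than in wild-type colon (4 without the male wild-type libraries) and all 6 were higher in Apc/Tgif than in Apc tumours, with medians of -2.82 and 1.92. Oasl2 read 1850, 4324, 1154, 10790 and 16180 in wild-type colon, 375.2 through 761.8 to 1087 in Apc tumours and 986.4 through 3241 to 11960 in Apc/Tgif tumours. It fell by 2.93 in Apc tumours (SE 0.588, limma adjusted p = 0.000424), without overlap, and rose by 2.42 between the tumours (SE 0.532, adjusted p = 0.00394), where the lowest Apc/Tgif tumour lay below the highest Apc tumour.

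Oas1a read 2269, 3537, 2031, 7505 and 8659 in wild-type colon, 851.7 through 1274 to 1531 in Apc tumours and 1285 through 3539 to 6865 in Apc/Tgif tumours. It fell by 1.91 in Apc tumours (SE 0.349, limma adjusted p = 0.000172) and rose by 1.30 between the tumours (SE 0.316, adjusted p = 0.00779). Its neighbour Oas1g, whose promoter stretch above has the same paired core, read 1145, 1860, 876.3, 3492 and 4118 in wild-type colon, 214.1 through 373.3 to 437.3 in Apc tumours and 303.5 through 1034 to 2309 in Apc/Tgif tumours. It fell by 2.70 in Apc tumours (SE 0.406, limma adjusted p = 2.13e-05) and rose by 1.42 between the tumours (adjusted p = 0.0116). In Apc/Tgif tumours Oas1g was still lower than in wild-type colon, with a difference of -1.28 (adjusted p = 0.013), though not without wild-type colon 5 (-1.07). Reads from such similar copies may have been split between them by the counting.

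Oasl1 read 1025, 1554, 750.6, 4335 and 4900 in wild-type colon, 275.3 through 610.3 to 981.5 in Apc tumours and 722.1 through 929.4 to 2812 in Apc/Tgif tumours. It fell by 1.96 in Apc tumours (SE 0.361, limma adjusted p = 0.000179). Its calls in the other comparisons were less firm. The rise of 1.03 between the tumours (adjusted p = 0.0355) ended without Apc tumour 2, 3, 5 or 6 or Apc/Tgif tumour 1, 3 or 6 (0.81 to 1.03). The fall of 0.93 in Apc/Tgif tumours against wild-type colon (adjusted p = 0.0388) ended without wild-type colon 2, 4 or 5 or Apc/Tgif tumour 1, 2, 4, 5 or 7 (-0.93 to -0.71). Oas2 and Oas3 rose between the tumours by 3.24 and 2.83, and for Oas3 the tumours did not overlap.

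The Ifit genes and others listed with them as antiviral effectors made up the largest role, though not every gene listed has a known antiviral act. Of 15, 12 were lower in Apc tumours than in wild-type colon and 2 of those calls, Csprs and Mx1, were kept without the male wild-type libraries. Between the tumours 13 of 15 were higher in Apc/Tgif tumours, with a class median of 2.16. Ifit1, whose product binds RNA with a viral type of cap, read 936.2, 2594, 633.3, 8025 and 11240 in wild-type colon, 157.2 through 593.1 to 1289 in Apc tumours and 1207 through 2313 to 8573 in Apc/Tgif tumours. It fell by 2.47 in Apc tumours (SE 0.678, limma adjusted p = 0.00541) and rose by 2.48 between the tumours (SE 0.613, adjusted p = 0.00886), and in each case the groups overlapped.

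Its relative Ifit2 read 618.2, 1121, 402.8, 3597 and 4444 in wild-type colon, 754.7 through 1037 to 2247 in Apc tumours and 2021 through 3894 to 11870 in Apc/Tgif tumours. It did not pass in Apc tumours against wild-type colon (-0.31, limma adjusted p = 0.681) and rose between the tumours by 1.90 (SE 0.52, adjusted p = 0.0163). It was higher in Apc/Tgif tumours than in wild-type colon by 1.59 (adjusted p = 0.0276), a call that ended without wild-type colon 1, 2 or 3 or Apc/Tgif tumour 3 (1.20 to 1.56), and in males alone the difference was -0.002. Ifit3 rose between the tumours by 2.81 (SE 0.572, adjusted p = 0.00231), Mx2 by 3.41 (SE 0.584, adjusted p = 0.000567) and Rsad2, whose product viperin makes a chain-terminating nucleotide, by 2.16. These 3 had no overlap between the kinds of tumour. Reads of Ifit3 may be shared with its near-identical copy Ifit3b. Mx2 is entered in the gene annotation as a polymorphic pseudogene.

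Csprs, the member that the gene annotation did not match, had the largest difference of any member between the tumours. It read 41.94, 93.31, 139.4, 57.38 and 73.51 in wild-type colon, 0 through 17.17 to 25.41 in Apc tumours and 139.6 through 294 to 1059 in Apc/Tgif tumours. The 3 groups did not overlap in any pairing, though the highest wild-type colon, 139.4, came next to the lowest Apc/Tgif tumour, 139.6. Csprs fell by 2.62 in Apc tumours (SE 0.679, limma adjusted p = 0.00352), rose by 2.36 in Apc/Tgif tumours against wild-type colon (adjusted p = 0.00699) and rose by 4.98 between the tumours (SE 0.614, adjusted p = 3.1e-05). The Apc tumour values of Csprs are near the floor, so the size of the last difference is uncertain. Under the alternatives it ran from 4.01 to 5.73 and was called in each. Both wild-type males lay within the range of the females for Csprs, unlike for most members.

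The class held 2 genes that did not pass in any comparison. Samd9l, a restriction factor, read 4878, 6382, 4069, 5067 and 7441 in wild-type colon, 2376 through 3421 to 5164 in Apc tumours and 2003 through 3834 to 8712 in Apc/Tgif tumours, and the tumours differed by 0.13 (limma adjusted p = 0.802). Isg20, an RNA exonuclease, differed by 0.40 between the tumours (adjusted p = 0.192). In Apc tumours against wild-type colon, the calls for Bst2, which tethers budding virus, and Cmpk2 ended without wild-type colon 4 or 5 (-0.82 and -0.81 for Bst2, -1.08 and -0.93 for Cmpk2). The call for Xaf1 ended without wild-type colon 5 (-1.10), and that for Ifi44 without wild-type colon 2, 4 or 5 or Apc tumour 4, 5, 6 or 7 (-2.04 to -1.45).

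Isg15, a ubiquitin-like protein that is joined to other proteins, was examined with its enzymes and with ubiquitin ligases of the response. Of 8 genes, 6 were lower in Apc tumours than in wild-type colon (3 without the male wild-type libraries) and 6 were higher in Apc/Tgif than in Apc tumours. Isg15 itself (chr4:156199424-156200818, minus strand, GRCm38) read 396.2, 1276, 250.5, 5958 and 8538 in wild-type colon, 105.1 through 184.3 to 416.1 in Apc tumours and 428.3 through 1276 to 3110 in Apc/Tgif tumours. The kinds of tumour did not overlap, and the 2 male wild-type libraries stood above every tumour. Isg15 fell by 3.06 in Apc tumours (SE 0.682, limma adjusted p = 0.00106), but by 0.98 without passing in females alone (adjusted p = 0.277), and it rose by 2.39 between the tumours (SE 0.617, adjusted p = 0.0117). In females alone that difference was 1.48 and not called (limma adjusted p = 0.142), and 0 of the 6 higher calls of this class were kept.

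Usp18, which removes Isg15 from proteins and damps the type I receptor, was not called in Apc tumours against wild-type colon (0.16, limma adjusted p = 0.852) and rose between the tumours by 2.44 (SE 0.588, adjusted p = 0.00745), without overlap. Uba7, the enzyme that activates Isg15, was lower than in wild-type colon in both kinds of tumour, with differences of -1.02 and -0.90, and differed between them by 0.12 (limma adjusted p = 0.816). In Apc/Tgif tumours that call ended without wild-type colon 4 or 5 (-0.75 and -0.67). Herc6, the mouse ligase for Isg15, rose between the tumours by 1.23 (adjusted p = 0.0301), which ended without Apc tumour 1, 4, 6 or 7 or Apc/Tgif tumour 3, 4 or 6 (1.03 to 1.23). The rise of Trim30a by 1.73 (adjusted p = 0.0245) ended without Apc tumour 7 or Apc/Tgif tumour 3, 4 or 6 (1.45 to 1.60), and in females alone the difference was 0.27.

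Trim25, a ligase that acts on Rig-I, read 5968, 7280, 6270, 8738 and 9243 in wild-type colon, 3377 through 3940 to 4544 in Apc tumours and 4240 through 5332 to 8629 in Apc/Tgif tumours. It fell by 0.94 in Apc tumours (SE 0.146, limma adjusted p = 2.99e-05) and rose by 0.51 between the tumours (SE 0.132, adjusted p = 0.0117). Its fall of 0.43 in Apc/Tgif tumours against wild-type colon ended without wild-type colon 4 or 5 (-0.39 and -0.37). Helz2, a helicase-like coactivator, read 3991, 5313, 3656, 5571 and 7952 in wild-type colon, 1458 through 1861 to 2116 in Apc tumours and 1414 through 2678 to 5129 in Apc/Tgif tumours. It fell by 1.53 in Apc tumours (SE 0.222, limma adjusted p = 1.43e-05) and by 0.94 in Apc/Tgif tumours (adjusted p = 0.00153), and its difference of 0.58 between them did not pass (adjusted p = 0.054).

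Dtx3l and Parp9 encode partners that act as 1 ligase complex, and their genes overlap on opposite strands, so that reads of one may be counted with the other where strand was not used. Dtx3l read 3256, 4226, 2752, 4367 and 6640 in wild-type colon, 1958 through 3240 to 5487 in Apc tumours and 3437 through 4064 to 8774 in Apc/Tgif tumours. Parp9 read 3247, 4257, 2499, 4822 and 6318, then 2305 through 3061 to 5406, then 3656 through 4616 to 9496. The groups overlapped throughout. Neither was called in Apc tumours against wild-type colon. Dtx3l was higher in Apc/Tgif than in Apc tumours by 0.76 (SE 0.255, limma adjusted p = 0.0479), which ended on leaving out any 1 of 12 libraries (0.63 to 0.79), all but wild-type colons 3 and 5, Apc tumour 2 and Apc/Tgif tumours 1, 2, 5 and 7. Parp9 was higher there by 0.83 (SE 0.249, adjusted p = 0.0266), which ended without Apc tumour 1, 4 or 7 or Apc/Tgif tumour 3, 4 or 6 (0.71 to 0.81).

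The other ADP-ribosyl transferases, Parp12 and Parp14, were lower in Apc tumours than in wild-type colon. Parp12, which restricts RNA viruses, read 4766, 6017, 3691, 7307 and 8386 in wild-type colon, 1466 through 2307 to 2775 in Apc tumours and 2242 through 3156 to 6965 in Apc/Tgif tumours. It fell by 1.51 in Apc tumours (SE 0.248, limma adjusted p = 5.42e-05), without overlap, and rose by 0.79 between the tumours (SE 0.225, adjusted p = 0.0197). Its fall of 0.72 in Apc/Tgif tumours against wild-type colon ended without wild-type colon 4 or 5 or Apc/Tgif tumour 1 (-0.68 to -0.61). Parp14 read 4029, 5211, 3253, 6120 and 9952 in wild-type colon, 1541 through 2192 to 4447 in Apc tumours and 2760 through 3145 to 7943 in Apc/Tgif tumours. It was lower in Apc tumours with a difference of -1.27 (SE 0.322, limma adjusted p = 0.003) and higher in Apc/Tgif than in Apc tumours by 0.90 (adjusted p = 0.0395), which ended without Apc tumour 1, 3, 4, 5, 6 or 7 or Apc/Tgif tumour 3, 4 or 6 (0.76 to 0.92).

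The Ifi27 genes, small hydrophobic proteins of mitochondrial and nuclear membranes, were called in 2 of the comparisons under every alternative. They lie side by side on chromosome 12 in GRCm38, Ifi27 at chr12:103434211-103440239 on the plus strand, Ifi27l2a at chr12:103442167-103443680 and Ifi27l2b at chr12:103450898-103457223 on the minus strand. All 3 fell in Apc tumours against wild-type colon and all 3 rose between the tumours, and these calls held in each sex alone and without the male wild-type libraries. Ifi27l2b read 2917, 3831, 3473, 8913 and 9259 in wild-type colon, 1039 through 2086 to 2773 in Apc tumours and 5125 through 8338 to 12310 in Apc/Tgif tumours. It fell by 1.60 in Apc tumours (SE 0.258, limma adjusted p = 4.48e-05) and rose by 2.11 between the tumours (SE 0.234, adjusted p = 1.15e-05), without overlap in either comparison.

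Ifi27 read 1265, 1504, 1427, 2912 and 2671 in wild-type colon, 405.4 through 513.2 to 689.9 in Apc tumours and 982 through 1223 to 1585 in Apc/Tgif tumours. It fell by 1.88 in Apc tumours (SE 0.179, limma adjusted p = 8.94e-08), rose by 1.25 between the tumours (SE 0.161, adjusted p = 4.77e-05) and stayed below wild-type colon in Apc/Tgif tumours with a difference of -0.63 (adjusted p = 0.00646). Ifi27l2a read 353.8, 793.5, 494.8, 1738 and 1366 in wild-type colon, 21.8 through 73.94 to 176 in Apc tumours and 272.1 through 1132 to 4163 in Apc/Tgif tumours. It fell by 3.50 in Apc tumours (SE 0.612, limma adjusted p = 0.00011) and rose by 3.67 between the tumours (SE 0.554, adjusted p = 0.000193). Reads of Ifi27l2a and Ifi27l2b may be shared, since they are close copies.

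Families that answer mainly to type II interferon follow. Of the 6 guanylate-binding proteins, GTPases that attack the vacuoles of intracellular microbes, 3 were lower in Apc tumours than in wild-type colon (0 of these without the male wild-type libraries) and 2, Gbp3 and Gbp7, were higher in Apc/Tgif than in Apc tumours. Gbp2 read 2184, 2392, 1689, 5351 and 3811 in wild-type colon, 233.1 through 1018 to 3325 in Apc tumours and 373.3 through 1203 to 3225 in Apc/Tgif tumours, with nearly the same span in both kinds of tumour. It was lower than in wild-type colon with a difference of -1.40 in Apc tumours (limma adjusted p = 0.0433) and with a difference of -1.38 in Apc/Tgif tumours (adjusted p = 0.0452), and the tumours differed by 0.02 (SE 0.502, adjusted p = 0.983). The first of these calls ended without wild-type colon 2, 4 or 5, Apc tumour 1, 3, 4 or 6 or Apc/Tgif tumour 6 (-1.48 to -1.08), and the second on leaving out any 1 of 13 libraries (-1.49 to -1.06), all but wild-type colon 3, Apc tumours 2, 4 and 5 and Apc/Tgif tumours 3 and 4.

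Gbp3 read 620.9, 730.3, 435.3, 1673 and 2467 in wild-type colon, 130 through 343.4 to 1117 in Apc tumours and 763.4 through 1138 to 3620 in Apc/Tgif tumours. It rose by 2.10 between the tumours (SE 0.481, limma adjusted p = 0.00538), and the only overlap came from Apc tumour 2, the library at 1117. Its lower level in Apc tumours than in wild-type colon, -1.52, was not called without wild-type colon 4 or 5 (-1.32 and -1.15). Gbp6 read 275.5, 434.3, 308.6, 981.9 and 1014 in wild-type colon, 254.5 through 507.2 to 2489 in Apc tumours and 907.4 through 1059 to 3166 in Apc/Tgif tumours. It was higher in Apc/Tgif tumours than in wild-type colon by 1.49 (adjusted p = 0.0194), though not without wild-type colon 1 or 3 (1.27 and 1.31), and the tumours differed by 1.14 (adjusted p = 0.0968). Gbp4 and Gbp5 were called in no comparison, and the call of Gbp7 between the tumours, 0.89 (limma adjusted p = 0.0372), ended without Apc tumour 1, 3, 4, 6 or 7 or Apc/Tgif tumour 2, 3, 4 or 6 (0.79 to 0.90).

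Immunity-related GTPases, the other family led by type II interferon, had 1 call of 4 in Apc tumours against wild-type colon and 1 of 4 between the tumours, Irgm1 each time. The first count is near the 25.2% of all genes called lower there, and 7.88% of all genes were higher between the tumours. Irgm1, a regulator of the family, read 2197, 2690, 1773, 5045 and 5084 in wild-type colon, 1107 through 1628 to 3529 in Apc tumours and 2147 through 3317 to 7817 in Apc/Tgif tumours. It was higher in Apc/Tgif than in Apc tumours by 1.16 (SE 0.313, limma adjusted p = 0.0156). Its lower level in Apc tumours than in wild-type colon, -0.90 (adjusted p = 0.0391), was not called without wild-type colon 2, 4 or 5 or Apc tumour 1, 4, 5, 6 or 7 (-0.91 to -0.72).

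Irgm2 read 1645, 2150, 885.8, 4648 and 4694 in wild-type colon, 575.2 through 1262 to 3116 in Apc tumours and 1050 through 2191 to 4530 in Apc/Tgif tumours, and the tumours differed by 0.63 (SE 0.39, limma adjusted p = 0.312). Igtp read 577.5, 941.6, 558.4, 3398 and 2737, then 246.2 through 662.6 to 2188, then 437.8 through 849.9 to 2037, and the tumours differed by 0.62 (SE 0.494, adjusted p = 0.444). Both are highest in the male wild-type libraries and spread widely among tumours. Their annotated spans overlap on 1 strand, so their reads may not be fully separate. Iigp1 had the lowest difference of any member between the tumours, -0.39 (adjusted p = 0.717).

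**Figure D4:**
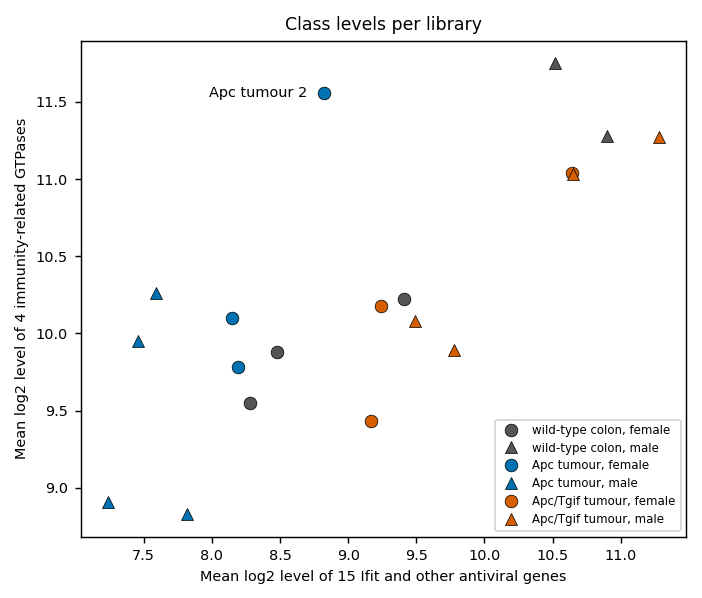
Mean log2(normalized count + 1) of the 15 Ifit and other antiviral genes (horizontal) and of the 4 immunity-related GTPases (vertical) in each library. Apc tumour 2, at 8.82 and 11.56, stands above the other Apc tumours on the vertical axis, where they run from 8.83 to 10.26.

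Among Apc tumours, Apc tumour 2 was the highest for both of these GTPase families. Its immunity-related GTPase mean of 11.56 and guanylate-binding protein mean of 10.61 were the highest of all 7 Apc tumours, the others reaching at most 10.26 and 9.08. Its antiviral mean, 8.82, was also the highest of the Apc tumours but lay below that of every Apc/Tgif tumour, which began at 9.17. This library also held 27.19 normalized counts of Ifng, while no other library held more than 6.83, and 1723 of Cxcl9, a chemokine gene induced by type II interferon, where other Apc tumours ran up to 658. Other listed interferon-stimulated genes were mixed. Cxcl10, at 675.6, was also highest there among Apc tumours. In contrast, Cxcl11 stood at 22.25 and Ido1 at 180 in Apc tumour 2, against 130.6 and 1168 in Apc tumour 7. The values of Apc tumour 2 are 1 library's and carry no test, and the genes were picked after their values were seen.

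Galectin-9 and the galectin-binding glycoprotein Lgals3bp, secreted proteins of the response, were alone among the classes in being higher in Apc/Tgif tumours than in both other groups for all members. Lgals9 (chr11:78962974-78984946, minus strand) read 2044, 3621, 2121, 7221 and 9833 in wild-type colon, 5450 through 6682 to 9503 in Apc tumours and 10930 through 15140 to 22160 in Apc/Tgif tumours. All Apc/Tgif tumours stood above all other libraries. Lgals9 rose by 1.07 from Apc to Apc/Tgif tumours (SE 0.255, limma adjusted p = 0.00708) and by 1.74 from wild-type colon (SE 0.282, adjusted p = 3.85e-05). Lgals3bp read 5394, 8222, 5193, 14560 and 17630, then 5700 through 10260 to 15860, then 14820 through 16210 to 29970. It rose by 0.85 between the tumours (SE 0.248, limma adjusted p = 0.0232), which was not called without Apc/Tgif tumour 6 (0.75), and by 0.94 against wild-type colon (adjusted p = 0.00777). In males alone the latter difference was 0.27 and not called (adjusted p = 0.596).

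Members were also compared within each sex. In males alone, 49 of 59 members were lower in Apc tumours than in wild-type colon (16.5% of all genes), with a median of -2.32. In females alone 15 were lower (22.1%) and 4 higher (21.3%), with a median of -0.43, and the 4 higher were Usp18 (2.09), Gbp6 (1.93), Lgals9 (1.47) and Lgals3bp (0.79). The test of the difference itself called 0 of 59 members by limma, where 0.0108% of all genes were called higher and 0 lower. At an unadjusted p under 0.05 it gave 45 members lower, against 5.56% of all genes, and the effect in males minus that in females was below 0 for all 59, with a median of -1.83. This comparison rests on 2 male wild-type libraries.

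Between wild-type males and females alone, limma called 1 member, Lgals9, higher in males by 1.75 (SE 0.3, adjusted p = 0.0322) and 0 lower, where 0.038% of all genes were higher and 0.0271% lower, and 42 members were higher at an unadjusted p under 0.05, against 6.54% of all genes. The male wild-type libraries also held more RNA of lymphocyte markers: the mean log2 value over the B and plasma cell markers was 10.65 and 10.34 in males and 8.36, 10.15 and 9.14 in females, and over the T and NK cell markers 5.83 and 5.47 in males and 4.13, 5.11 and 4.8 in females. Both males were also above all 3 females in the mean over the plasmacytoid dendritic cell markers (7.16 and 7.07 against 6.42, 6.88 and 6.63) and over the epithelial markers (15.1 and 14.86 against 14.69, 14.77 and 14.71). Not every marker of these lists was higher in males. Male and female means were 58.85 and 68.96 for Ccr9 and 144.2 and 149.1 for Runx2, both plasmacytoid dendritic cell markers. They were 41970 and 44210 for the epithelial marker Cdh1 and 12.49 and 17.34 for Klrb1c of the T and NK cell list. The part of these markers in the sex difference was not tested.

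Apc/Tgif and Apc tumours were compared in the same way. In males alone 47 members were higher in Apc/Tgif than in Apc tumours (8.37% of all genes) and 0 lower (8.99%), with a median of 1.79, and in females alone 14 were higher (12.1%), with a median of 0.73. The 14, all among the 43, were Irf7, Sp100, Phf11d, Dhx58, Oasl1, Mx2, Ifi35, Xaf1, Csprs, the 3 Ifi27 genes, Lgals9 and Lgals3bp. The test of the difference called 9 members (15.3%) with a larger difference in males, near the 11.6% of all genes called in that direction: Ddx58, Mx1, Oas2, Ifi44, Ifi27l2a, Phf11b, Trim30a, Gbp6 and Irgm2. Without Apc tumour 2 it called 1, and without Apc/Tgif tumour 3 it called 17, and the shares of all genes in those fits are not given. With wild-type colon as the base of Apc/Tgif tumours, the test called 2 members lower, Lgals9 (-1.53) and Uba7 (-1.73), and 0 higher, where 1.73% of all genes were lower and 1.68% higher, and 4 of 59 differences were above 0 (51% of all genes). In that comparison males alone gave 1 member higher (21.3% of all genes) and 13 lower (21.2%), and females alone 11 higher (21.3%) and 3 lower (22.1%). Within Apc tumours 1 member, Gbp6, was lower in males with a difference of -1.67 (SE 0.431, limma adjusted p = 0.0272) and 0 were higher, where 3.61% of all genes were lower and 4.73% higher, and 10 of 59 differences were above 0 (50.8% of all genes). Within Apc/Tgif tumours limma called 0 members either way (3.8% of all genes higher and 3.74% lower), 10 were higher in males at an unadjusted p under 0.05 (12.9% of all genes), and 52 of 59 differences were above 0 (49.9%).

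Interferon genes themselves were at the edge of detection. None of 20 listed ligand genes passed the filter on low values. Of the type I genes 10 Ifna genes and Ifnab were listed at 0 in every library. Ifna6 was above 0 in wild-type colon 5 alone (1.14) and Ifna15 in Apc tumour 3 alone (0.85), and Ifnb1 was above 0 in Apc/Tgif tumours 5 and 6 alone, at 2.09 and 0.94. Ifne was 0 in every wild-type colon and ran from 0 to 4.33 in Apc and from 0 to 10.13 in Apc/Tgif tumours. Ifnk and Ifnz were above 0 in most libraries, reaching at most 8.34 and 19.35. These values are too low to compare groups.

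Receptor subunits were well measured. Beside the counts of listed genes from here on, 7.88% of all genes were higher in Apc/Tgif than in Apc tumours and 8.76% lower. Of 6, 2 were higher in Apc/Tgif than in Apc tumours: Il10rb, a chain shared by the type III receptor, by 0.52 (limma adjusted p = 0.000195) and Ifnlr1, its specific chain, by 0.62 (adjusted p = 0.00662). Ifnlr1 ran from 584.6 to 648.5 in wild-type colon, from 557.8 through 630.7 to 894.7 in Apc tumours and from 749.6 through 1092 to 1567 in Apc/Tgif tumours. Il10rb ran from 2879 to 3322, from 2151 through 2481 to 2924, and from 3078 through 3706 to 3862, so that the tumours did not overlap. The type I receptor gene Ifnar1 was higher than in wild-type colon by 0.73 in Apc tumours and 0.77 in Apc/Tgif tumours, and Ifngr1 of the type II receptor was lower, with differences of -0.82 and -1.17, with no call between the tumours for either.

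Of 14 genes that induce interferon, 2 were higher between the tumours, Tlr9 (0.94) and Ticam1 (0.37), and 12 were not called. Tmem173, which encodes the DNA-pathway adaptor Sting, rose against wild-type colon by 2.29 in Apc and 2.46 in Apc/Tgif tumours, and Mavs, the adaptor of Rig-I and Mda5, fell by 1.25 and 1.28. Of 8 inhibitors, Trex1 (0.81) and Adar (0.66), enzymes that remove or mask the body's own nucleic acid, were higher in Apc/Tgif than in Apc tumours. Socs3 rose by 2.46 and Samhd1 fell by 1.56 in Apc tumours against wild-type colon.

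A further 55 interferon-stimulated genes outside the set were less uniform. Apc tumours had 7 of them higher than wild-type colon and 25 lower, with a median of -0.64, and between the tumours 17 were higher and 1 lower, with a median of 0.45. Of all genes, 23.9% were higher and 25.2% lower in Apc tumours than in wild-type colon. Those with the smallest p between the tumours were Oas1b (1.92), Rnf213 (2.05) and Tor3a (0.65), all higher in Apc/Tgif tumours. The one that was lower was Ido1, a tryptophan-degrading enzyme, with a difference of -3.02 (limma adjusted p = 0.0171). Ifitm1, Ifitm2 and Ifitm3, which block virus entry at membranes, rose where most members were lower: against wild-type colon they were higher by 3.25, 1.58 and 2.43 in Apc tumours and by 3.08, 2.03 and 2.98 in Apc/Tgif tumours.

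Markers of other cell types moved with some of these results. Between the tumours 5 of 9 macrophage markers were higher in Apc/Tgif tumours (Csf1r, C1qa, C1qb, C1qc and Adgre1, by 0.57 to 0.70). For Adgre1 the means in Apc and Apc/Tgif tumours were 562.8 and 529.8 in females and 347.1 and 872.7 in males. The means of Csf1r, C1qa, C1qb and C1qc were higher in Apc/Tgif tumours in both sexes. Not called were Cx3cr1 (0.62), Cd68 (0.24), Mrc1 (-0.03) and Cd163 (-1.10). The mean log2 value over the macrophage markers was 9.12 to 9.48 in Apc and 9.41 to 9.84 in Apc/Tgif tumours. Neutrophil markers had 2 of 6 lower (Cxcr2 and Mmp8), with a mean of 9.36 to 10.41 in Apc and 7.52 to 10.31 in Apc/Tgif tumours. Of T and NK cell markers 0 of 11 were called, of B and plasma cell markers 0 of 7, and of plasmacytoid dendritic cell markers 0 of the 5 tested of 7 listed. Siglech, which defines plasmacytoid dendritic cells, the main makers of type I interferon, ran from 3.15 to 48.05 in Apc and from 1.34 to 33.62 in Apc/Tgif tumours. In Apc tumours it ran from 20.77 to 48.05 in females and from 3.15 to 12.25 in males. In Apc/Tgif tumours the order of the sexes was reversed, at 1.34 to 4.33 in females and 16.3 to 33.62 in males. Of 9 epithelial markers 1, Krt20 of the mature surface epithelium, was lower in Apc/Tgif tumours, with a difference of -2.96. Fibroblast markers had 2 of 6 lower there (Col1a1, -0.82, and Dcn, -0.65), endothelial markers 1 of 6 (Cdh5, -0.65) and smooth muscle markers 0 of 8. The part of these cells in the member results was not tested.

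The promoter letters were also read against the difference between the tumours. The ISRE core was in 15 of 31 matched members called higher in Apc/Tgif than in Apc tumours and in 7 of 12 that were not called. The GAS core was in 5 of 31 and in 6 of 12. These shares are descriptions of short windows in 43 genes.

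The members differed in how closely they followed the other members over the 19 libraries. Pearson's r with the mean of the other members, the gene itself left out, was highest for Ifit3 (0.985) and Rtp4 (0.98). It was lowest for Irf1 (0.237), Iigp1 (0.284) and Gbp4 (0.392). With the group means removed, it was lowest for Csprs (0.222). Among genes outside the set, the 10 most like the score were Apol9b (r = 0.988), Apol9a (0.98), mKIAA1554 (0.969), Ifit3b (0.964), H2-T24 (0.95), Oas1b (0.943), Slfn5 (0.939), AK217856 (0.938), AK015772 (0.934) and Ddx60 (0.927). All points are libraries of 3 groups, and with the group means removed r for Apol9b was 0.975.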

How the data were processed

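RNA was measured in 19 poly-A libraries, 1 per mouse, read as single ends of 75 bases per the labels' protocols. The deposited table holds a signal per gene and library, that is, the authors' counts after division by a library's size factor. Per the submitters' processing notes the tools were Salmon and DESeq2 and the builds GRCm38 and mm10; no version or annotation is given in the sources used here. Use of strand is not given either, so a gene and an overlapping partner on the other strand cannot be told apart. Low values were mostly multiples of 1 step per library (0.74 to 1.44), but only 82.7% to 85.7% fell within 0.1 of a whole number of steps. The read counts could therefore not be recovered, and no count test was run. Totals of normalized counts ran from 34417808 to 44732717, about 28800000 to 49400000 reads, and a value of 10 thus stands for roughly 10 reads.

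Genes reaching 10 in at least 5 libraries were tested (18445 of 32694). Values were transformed to log2(normalized count + 1) and fitted by limma 3.58.1 (R 4.3.3) with a variance trend and robust moderation. Group and sex were the terms of a single fit to the 19 libraries, and sex contrasts came from 1 mean per group and sex. Tests were two-sided, with Benjamini-Hochberg adjustment over all genes tested and a threshold of 0.05. Differences on this scale understate the change of low genes. The method was tested on simulated data. The replicates are separate mice per the design text. Alternatives covered the pseudocount, filter, scaling, sex term, weights and samples.

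Members and gene lists were chosen with earlier results of these data known. In each role, up to 3 members with the highest mean and the one with the smallest p are given in full. Listed genes of the pathway are named by smallest p, and 1 of the pathway lists is not reported here. The libraries singled out, and genes named where a count was small, were chosen after their values were seen. Gene positions come from GENCODE M21 (GRCm38), which matched 58 of 59 members.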

Additional observations from a re-analysis of the deposited data

Results flagged for a closer look

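Single libraries stood far from the rest of their group in 23 of 177 combinations of member and group (13%), and the combinations share libraries. The measure was the gap to the next library as a share of the group's range. Its rate of about 1 in 20 holds for normally distributed values, whereas untransformed counts were used here. Each flagged value was the highest of its group. No share over all genes was computed, so the 13% cannot be read as a trait of the members. The highest value was Apc tumour 2 in 15 of them: Stat2 1632, Oas2 246.5, Rtp4 832.2, Ifi44 400.4, Xaf1 660.3, Parp14 4447, Gbp3 1117, Gbp4 1362, Gbp5 773.5, Gbp6 2489, Gbp7 1508, Iigp1 3435, Igtp 2188, Irgm1 3529 and Irgm2 3116 normalized counts. Next to these, the second highest Apc tumour held, for example, 955.2 for Iigp1 and 417 for Gbp4. In Apc/Tgif tumour 6 the value stood apart for Oas2 (2886), Bst2 (2594), Usp18 (6701), Ifi27l2a (4163), Irgm2 (4530) and Lgals3bp (29970), in Apc/Tgif tumour 3 for Gbp2 (3225), and in wild-type colon 4 for Iigp1 (1769).

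The effect of genotype differed between the sexes by limma's test of the difference for 11 members, as the log2 effect in males minus that in females. The 2 with wild-type colon as the base were 3.39% of members, where 1.73% of all genes were called in that direction, and the 9 between the tumours were 15.3%, where 11.6% of all genes were. With wild-type colon as the base of Apc/Tgif tumours they were Lgals9 (-1.53, adjusted p = 0.041) and Uba7 (-1.73, adjusted p = 0.0473). Between the kinds of tumour they were Phf11b (2.99, adjusted p = 0.00975), Gbp6 (2.16, adjusted p = 0.0181), Ifi44 (3.45, adjusted p = 0.0181), Ddx58 (1.55, adjusted p = 0.019) and Oas2 (3.5, adjusted p = 0.0248). The others there were Trim30a (2.54), Mx1 (2.18), Irgm2 (1.71) and Ifi27l2a (2.6). Without Apc tumour 2 only 1 of the members was called in that comparison.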

How the results depend on the processing

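Of 104 calls of single members, 29 were the same under every alternative, and 3024 of 3327 alternative values kept the call, 299 lost it and 4 reversed. Those were Cmpk2 (0.014), Bst2 (0.105) and Ifi44 (0.49) in Apc tumours against wild-type colon in females alone, and Ifit2 (-0.002) in Apc/Tgif tumours against wild-type colon in males alone. On leaving out 1 library, 33 of 42, 9 of 19 and 34 of 43 calls were kept throughout for Apc tumours against wild-type colon, Apc/Tgif tumours against wild-type colon, and Apc/Tgif against Apc tumours.

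In Apc tumours against wild-type colon, 0 members were higher, but 1 was with quantile normalization, equal library totals, no sex term, means per group and sex, or without both male wild-type libraries, and 4 were in females alone (0 to 1 on leaving out 1 library). The 42 lower became 15 in females alone and 18 without both male wild-type libraries (33 to 48 on leaving out 1). For Apc/Tgif tumours, also against wild-type colon, the 8 higher became 1 in males alone and 17 without both male wild-type libraries (6 to 10), and the 11 lower became 5 with equal totals, 3 in females alone and 2 without those libraries (3 to 11). Between the tumours the 43 higher became 14 in females alone (34 to 45), and the 0 lower became 1 with quantile normalization, equal totals, quality weights or means per group and sex (0 to 1). Alternatives with 1 sex or fewer libraries hold fewer samples, and elsewhere the cause was not tested. Except for the sexes taken alone, the share of all genes called under an alternative is not given here or below. Those counts cannot be read as particular to the members.

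With quality weights, the test of a sex difference in effect called 18 members lower in Apc tumours against wild-type colon (0 without; 0 to 7 on leaving out 1 library). For the same test with Apc/Tgif tumours it called 4 with weights, 1 with equal totals and 0 without a filter (2 in the reported fit; 0 to 4). Between the tumours it called 1 to 17 higher on leaving out 1 library and, with weights, 1 lower. Males against females gave 23 higher with weights and 2 without a filter in wild-type colon (1 reported; 0 to 4). In Apc tumours it gave 4 higher and 4 lower with weights, and 2 lower with a filter of 50 and 3 with quantile normalization (0 to 1 higher and 0 to 3 lower). It gave 2 higher in Apc/Tgif tumours with weights (0 to 3). Equal totals moved the median of all genes to 0.19, 0.15 and -0.06 in the 3 comparisons, from -0.01, 0.00 and -0.01. No paired analysis was possible because replicate numbers were given in accession order and the groups are different mice. The interferon genes stayed under the filter and were not compared.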
